A study of Homo sapiens with 4 samples.

Results

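The mitochondrial ribosomal protein genes are the nuclear genes whose symbols begin with MRPL or MRPS and a digit. They were taken from the gene table by that naming rule, through the gene names of GENCODE release 44, and only protein-coding genes were kept. The rule found 78 genes among the 58735 listed, on 21 chromosomes, and 77 of them passed the filter for testing. Expression had been measured by RNA-seq on total RNA in 2 control libraries and 2 libraries of cells treated with GNE-987, all labelled NB4, the name of a human acute promyelocytic leukemia cell line. The control libraries had no treatment by their labels, and the treated cells received 25 nM GNE-987 for 24 h. The compound is a degrader of BET proteins, which are readers of acetylated histones, and it works by bringing them to a ubiquitin ligase.

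Mitochondria carry their own ribosome, which makes the few membrane proteins of the respiratory chain that are encoded by mitochondrial DNA. Its RNAs come from the mitochondrial genome, whereas all of its proteins are made in the cytosol from nuclear genes and imported. Some of these proteins have counterparts in bacterial ribosomes and are called conserved here, and the others, called mitochondria-specific, were added during the evolution of mitochondria.

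The values are FPKM, in which fragments are divided by the length of the gene and a number for each library, so levels can be set beside each other between genes. Genes were tested with limma on log2(FPKM + 0.1) when their mean over the 4 libraries was at least 0.5 FPKM, and log2 fold changes are GNE-987 over control on that scale, which understates the change of low genes. A gene was called when its unadjusted P value was under 0.05 and its fold change was over 2 or under 0.5. The labels do not say that the libraries came from separate cultures, so P values measure only the spread between these libraries, which may be technical. Since a gene's FPKM moves in steps of what 1 read is worth, reads could be worked out, and genes held 19472140 and 19275508 of them in the controls and 12404002 and 12909700 after GNE-987. The mitochondrial ribosomal protein genes held 127553 and 122746 of these reads in the controls and 29290 and 30234 after GNE-987. The median member rested on 1312 and 1219 reads in the controls and on 250 and 268 reads in the treated libraries.

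The labelled cell identity was checked against marker genes. The granule gene MPO, a defining marker of promyelocytes, was at 0.0246 and 0 FPKM in the controls and at 11.8 and 11.3 FPKM after GNE-987, and ELANE and CTSG were at 0 in both controls. The summed level of 8 promyelocyte markers was 10.8 and 9.53 FPKM in the controls and 32.3 and 29.6 FPKM after GNE-987. The erythroid transcription factor gene GATA1 was at 124 and 122 FPKM in the controls and at 15.1 and 12.5 FPKM after GNE-987, and 10 erythroid markers summed to 367 and 369 FPKM against 563 and 485 FPKM. MPO, ELANE and CTSG, defining markers of the labelled identity, were thus at or near 0 in the controls. Others on the same list were higher there, with SPI1 at 7.52 and 5.68 FPKM and AZU1 at 2.07 and 2.10 FPKM. CD33 was at 0.836 and 0.915 FPKM, PRTN3 at 0.341 and 0.710 FPKM and CEBPE at 0.0559 and 0.116 FPKM in the controls. Both marker lists moved with the treatment, and their part in the results was not tested.

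After GNE-987, 38 of the 77 tested mitochondrial ribosomal protein genes were called lower (49.4%) and 2 were called higher, while 37 were not called. Among all 16668 genes tested, 24.9% were called lower and 33.6% higher, and among the 10996 protein-coding genes tested the shares were 31.7% and 24%. The median log2 fold change of the mitochondrial ribosomal protein genes was -0.99, beside 0.17 over all genes tested and -0.29 over protein-coding genes. The values ran from -2.89 for MRPL34 to 1.10 for MRPL48. In bulk RNA, fewer cells of a type and less RNA per cell cannot be told apart.

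The decrease was spread over the family with large differences between its members. The log2 fold change was under -2 in 11 genes, between -2 and -1 in 27, between -1 and 0 in 19, between 0 and 1 in 18 and over 1 in 2. Both GNE-987 libraries lay below both controls for 56 genes and above both for 17, and the groups overlapped for 4. Among protein-coding genes tested, 53.2% lay lower in this sense and 40.1% higher. The Benjamini-Hochberg adjusted P value of limma was under 0.05 for 66 members (85.7%), near the 83.1% of protein-coding genes and 77.6% of all genes tested, and the largest among the called ones was 0.0416. The standard error of a member's log2 fold change had a median of 0.0937 and ran from 0.0403 to 0.455.

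**Figure D1:**
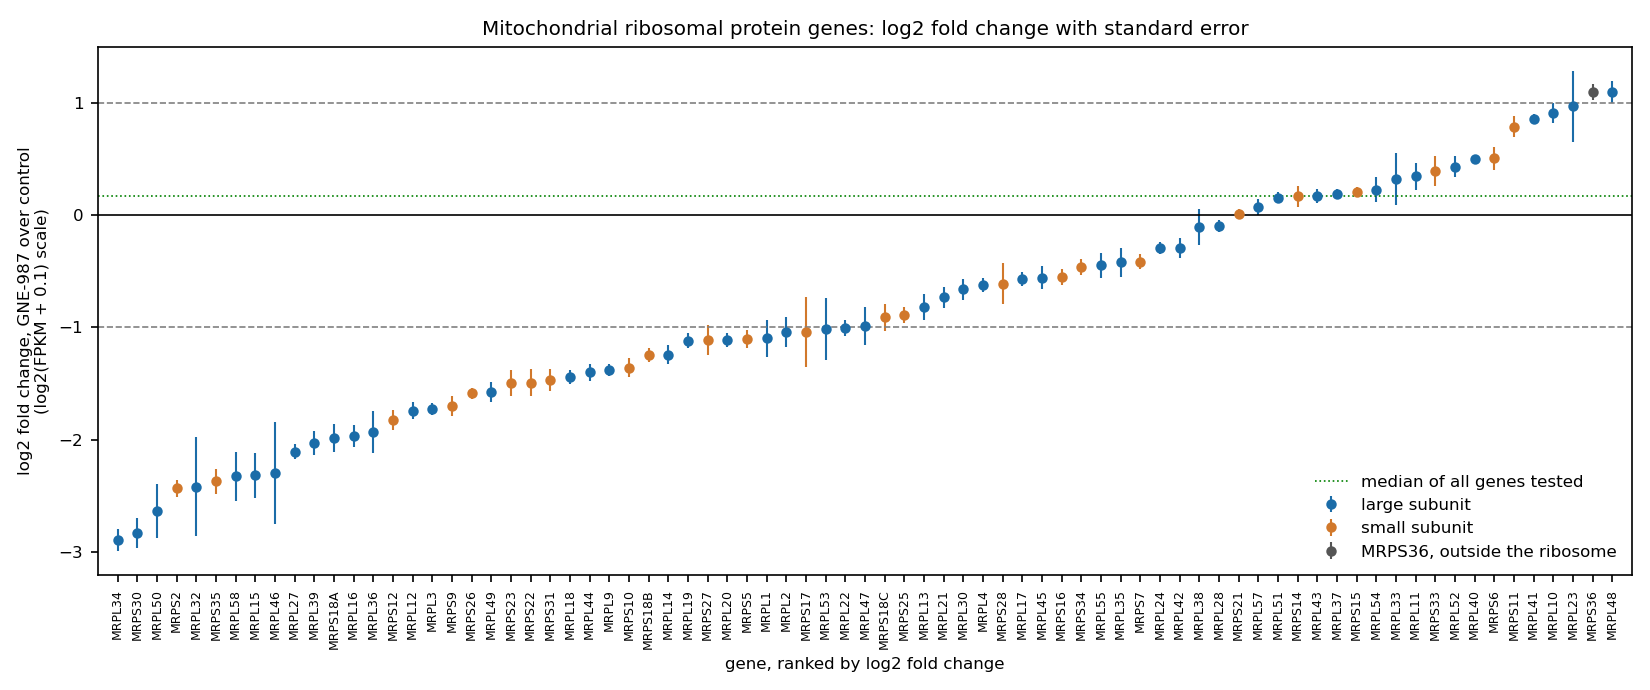
Log2 fold change of each of the 77 tested genes on the y axis (GNE-987 over control, log2(FPKM + 0.1) scale), ranked along the x axis, with the standard error from limma as bars and the colour giving the subunit. The points run from -2.89 to 1.10, 57 of them lie below 0, and the dashed lines mark the fold change of 2 in each direction.

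The number of calls moved with the scaling of the libraries. The deposited values were scaled to 1.18 and 1.15 times the reads on genes in the controls and to 0.674 and 0.684 times in the GNE-987 libraries. Scaling to the total of reads on genes shifted the median of all genes by -0.73 and gave 55 members lower and 0 higher. Scaling to GAPDH, which was called higher as deposited but was at -0.11 with quantile normalization, shifted that median by -1.70 and gave 72 lower and 0 higher, and quantile normalization shifted it by -0.42 and gave 43 lower and 1 higher. Over all genes tested, the calls were 5602 higher and 4148 lower as deposited, 4170 and 6632 with total reads, 3004 and 9694 with GAPDH, and 4235 and 5464 with quantile normalization. Relative to the median of all genes, the median of the mitochondrial ribosomal protein genes was -1.16 as deposited and -0.90 with quantile normalization. The 38 genes called lower were called lower under each of these scalings. Neither of the 2 genes called higher was called higher under all of them. Each of these scalings shifted the median of all genes down, which works for lower calls and against higher ones. The difference between the 2 sets of calls therefore does not tell how firm either is.

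Before treatment the family spanned a wide range of levels. The highest control levels were those of MRPS34, MRPL14 and MRPL15, which code for a small subunit protein found only in mitochondria and for large subunit proteins with bacterial counterparts. MRPS34 was at 155 and 148 FPKM in the controls and at 104 and 116 FPKM after GNE-987, with a log2 fold change of -0.46 ± 0.07 (SE, n = 2 per group), which was not called as deposited but was called lower with total reads (-1.24), quantile normalization (-1.63) and GAPDH (-2.31). MRPL14 was at 146 and 135 FPKM in the controls and at 63.2 and 55.6 FPKM after GNE-987, and was called lower (log2 fold change -1.24). MRPL15 was at 63.7 and 70.4 FPKM in the controls and at 16.1 and 11.1 FPKM after GNE-987, a 4.98-fold decrease. For each of these 3 genes both treated libraries lay below both controls. Across the 77 tested genes the control and GNE-987 levels had a Spearman correlation of 0.714, a description over genes that share the same libraries. The SD of the members' log2 levels was 1.44 in the controls and 1.63 after GNE-987.

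Among the genes that fell most, MRPL34 and MRPS30 lost the largest fold. MRPL34, which codes for a conserved large subunit protein (ENSG00000130312, chr19:17292609-17306843 on GRCh38), was at 33.8 and 34.7 FPKM in the controls and at 4.19 and 4.91 FPKM after GNE-987. The log2 fold change was -2.89 ± 0.10 (SE, n = 2 per group), 7.42-fold, with a Benjamini-Hochberg adjusted P of 0.000195 in limma. MRPS30, whose product sits in the large subunit despite its name (chr5:44808947-44820428), was at 13.6 and 14.1 FPKM in the controls and at 2.08 and 1.66 FPKM after GNE-987. For both genes the 2 libraries of a group lay close together and the groups were far apart. MRPL50, a mitochondria-specific gene of the large subunit, was at 9.25 and 9.42 FPKM in the controls and at 1.79 and 1.12 FPKM after GNE-987. The treated values of MRPL50 rested on 50 and 33 reads, so its log2 fold change of -2.63 had the larger standard error of 0.24.

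The other genes of this end of the ranking code for both subunits. MRPS2, a conserved gene of the small subunit, was at 31.0 and 29.2 FPKM in the controls and at 5.78 and 5.24 FPKM after GNE-987, a 5.39-fold decrease. MRPS35, a mitochondria-specific gene of the small subunit, was at 44.2 and 42.6 FPKM in the controls and at 9.19 and 7.56 FPKM after GNE-987, a 5.16-fold decrease. Both were separated by more than the spread between replicates. MRPL32, a conserved gene of the large subunit, was at 13.7 and 14.8 FPKM in the controls and at 3.96 and 1.67 FPKM after GNE-987. Its treated libraries differed from each other by more than those of the genes above, the standard error of its log2 fold change was 0.44, and without control replicate 2 it was no longer called (log2 fold change -2.37).

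At the other end of the ranking, MRPL48 and MRPS36 were called higher, although both changed direction when the libraries were scaled to GAPDH (log2 fold changes -0.73 and -0.75). MRPL48, a mitochondria-specific gene of the large subunit (chr11:73787872-73865133), was at 6.85 and 6.24 FPKM in the controls and at 15.1 and 13.2 FPKM after GNE-987, with a log2 fold change of 1.10 ± 0.10 (SE, n = 2 per group). MRPS36 was at 12.3 and 13.8 FPKM in the controls and at 28.1 and 27.8 FPKM after GNE-987, with a log2 fold change of 1.09 ± 0.07. The product of MRPS36 is now assigned to the 2-oxoglutarate dehydrogenase complex of the citric acid cycle rather than to the ribosome, and RefSeq lists the gene as KGD4. Scaled to total reads, neither gene was called (log2 fold changes 0.33 and 0.32).

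A further 4 genes had positive log2 fold changes of the same order without being called. MRPL41, a mitochondria-specific gene of the large subunit, was at 55.4 and 57.2 FPKM in the controls and at 99.8 and 104 FPKM after GNE-987. MRPL10, which codes for the base of the ribosomal stalk, was at 19.7 and 16.9 FPKM in the controls and at 34.1 and 34.8 FPKM after GNE-987. MRPS11, a conserved gene of the small subunit, was at 3.07 and 3.38 FPKM in the controls and at 5.46 and 5.80 FPKM after GNE-987. In all 3 genes both treated libraries lay above both controls, with log2 fold changes of 0.86, 0.91 and 0.79 that became negative with GAPDH (-0.99, -0.93 and -1.001). MRPL23, whose product lies near the exit of the peptide tunnel, was at 3.69 and 6.73 FPKM in the controls and at 9.49 and 10.2 FPKM after GNE-987. It was not called because its fold change was 1.96 (Benjamini-Hochberg adjusted P of 0.051 in limma). Without control replicate 2 MRPL23 was called higher (log2 fold change 1.39), and without control replicate 1 the same held for MRPL10 (1.02), while the log2 fold change of MRPL23 with GAPDH was -0.85.

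**Figure D2:**
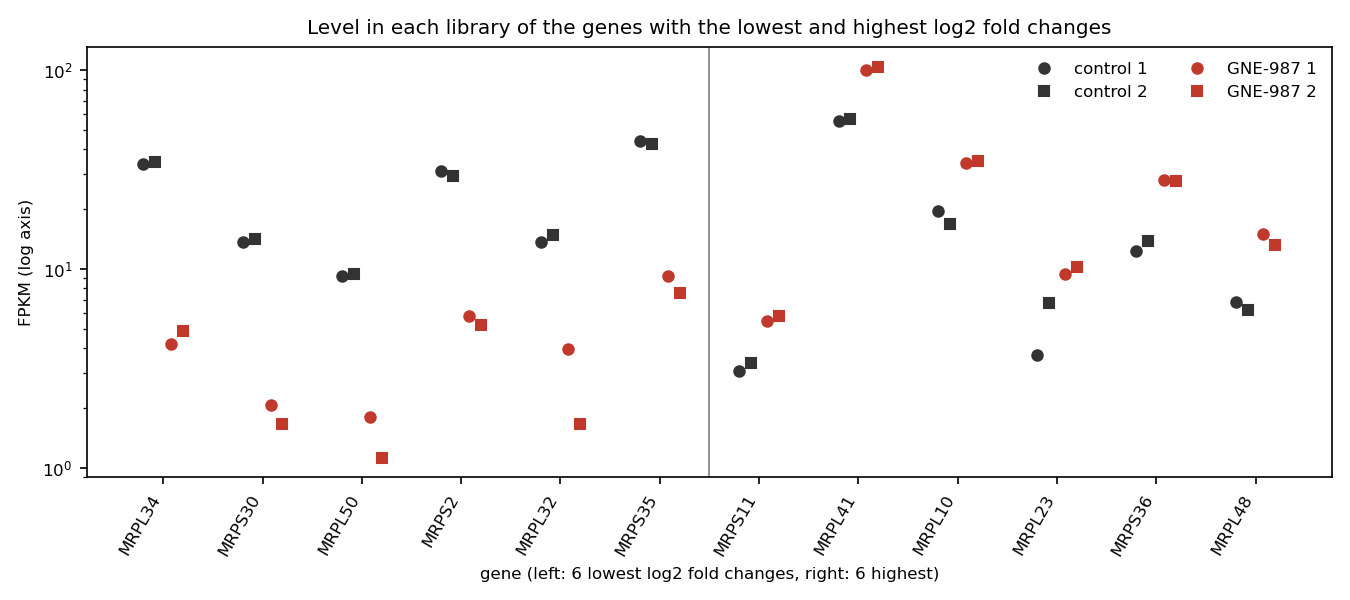
FPKM in each library on a log y axis for the 6 genes with the lowest and the 6 with the highest log2 fold changes, with control libraries in black and GNE-987 libraries in red. On the left every red point lies below both black points, from MRPL34 (4.19 and 4.91 against 33.8 and 34.7 FPKM) to MRPS35, and on the right every red point lies above both.

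The members with known functional positions on the ribosome changed unequally. Of the stalk, which recruits translation factors, MRPL12 was at 31.2 and 29.8 FPKM in the controls and at 9.54 and 8.60 FPKM after GNE-987, a 3.34-fold decrease, whereas its partner MRPL10 had the positive log2 fold change given above. With quantile normalization the log2 fold change of MRPL12 stayed below that of MRPL10. The other scalings use a single factor per library, which shifts both genes nearly alike and cannot test their order. MRPS12, which codes for a protein of the decoding centre, was at 39.2 and 37.1 FPKM in the controls and at 11.4 and 9.99 FPKM after GNE-987, a 3.54-fold decrease. MRPL58, which codes for a peptidyl-tRNA hydrolase built into the large subunit, was at 45.0 and 40.1 FPKM in the controls and at 10.3 and 6.85 FPKM after GNE-987, a 5.01-fold decrease. These 3 decreases were all called, with treated libraries below both controls.

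MRPL44, whose product has a fold related to RNase III, was at 15.3 and 15.2 FPKM in the controls and at 5.41 and 6.03 FPKM after GNE-987 (log2 fold change -1.40). MRPL36, one of the smallest ribosomal proteins, was at 25.1 and 18.8 FPKM in the controls and at 6.18 and 5.12 FPKM after GNE-987 (log2 fold change -1.93). Both were called lower. MRPL45, which codes for the protein that anchors the ribosome to the inner membrane, was at 49.9 and 45.7 FPKM in the controls and at 35.1 and 29.97 FPKM after GNE-987, and its log2 fold change of -0.56 was not called as deposited but was called lower with quantile normalization (-1.05), total reads (-1.33) and GAPDH (-2.40).

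The paralogues MRPS18A, MRPS18B and MRPS18C code for related proteins at different places of the ribosome, the first of them in the large subunit. MRPS18A was at 26.9 and 24.3 FPKM in the controls and at 5.78 and 7.06 FPKM after GNE-987 (log2 fold change -1.98). MRPS18B was at 60.9 and 65.9 FPKM in the controls and at 26.0 and 27.4 FPKM after GNE-987 (log2 fold change -1.24). The controls of both lay above all treated libraries and both genes were called lower. MRPS18C, the least abundant of the 3, was at 2.92 and 2.79 FPKM in the controls and at 1.55 and 1.40 FPKM after GNE-987, and its log2 fold change of -0.91 was not called as deposited but was called lower with quantile normalization (-1.37), total reads (-1.62) and GAPDH (-2.54). MRPS24 was the only member under the filter, at 0.183 and 0.121 FPKM in the controls and at 0.504 and 0.520 FPKM after GNE-987, from at most 12 reads in a library.

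The 2 subunits had similar counts and medians. Of the large subunit genes, 25 of 51 were called lower and 1 higher, with a median log2 fold change of -0.99. Of the small subunit genes, 13 of 25 tested were called lower and 0 higher, with a median of -1.04. By origin, 22 of 45 tested conserved genes and 16 of 31 mitochondria-specific genes were called lower, with medians of -0.99 and -1.01. Within the large subunit the medians were -1.02 for the 30 conserved and -0.29 for the 21 mitochondria-specific genes, and within the small subunit -0.61 for the 15 conserved and -1.36 for the 10 mitochondria-specific genes. The order of the origins was thus opposite in the subunits, and no test of that difference was made.

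Summed over its genes, the large subunit was at 1385 and 1355 FPKM in the controls and at 920 and 889 FPKM after GNE-987. The small subunit summed to 733 and 729 FPKM in the controls and to 425 and 437 FPKM after GNE-987. The ratio of the sums was 1.89 and 1.86 in the controls and 2.16 and 2.04 after GNE-987, so the treated libraries were both above the controls. With 2 libraries per group, the smallest P value of an exact permutation test (two-sided) is 0.333, and none is given for these sums. The whole family made up 0.655% and 0.637% of the reads on genes in the controls and 0.236% and 0.234% after GNE-987, a share that a single factor per library does not change.

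**Figure D3:**
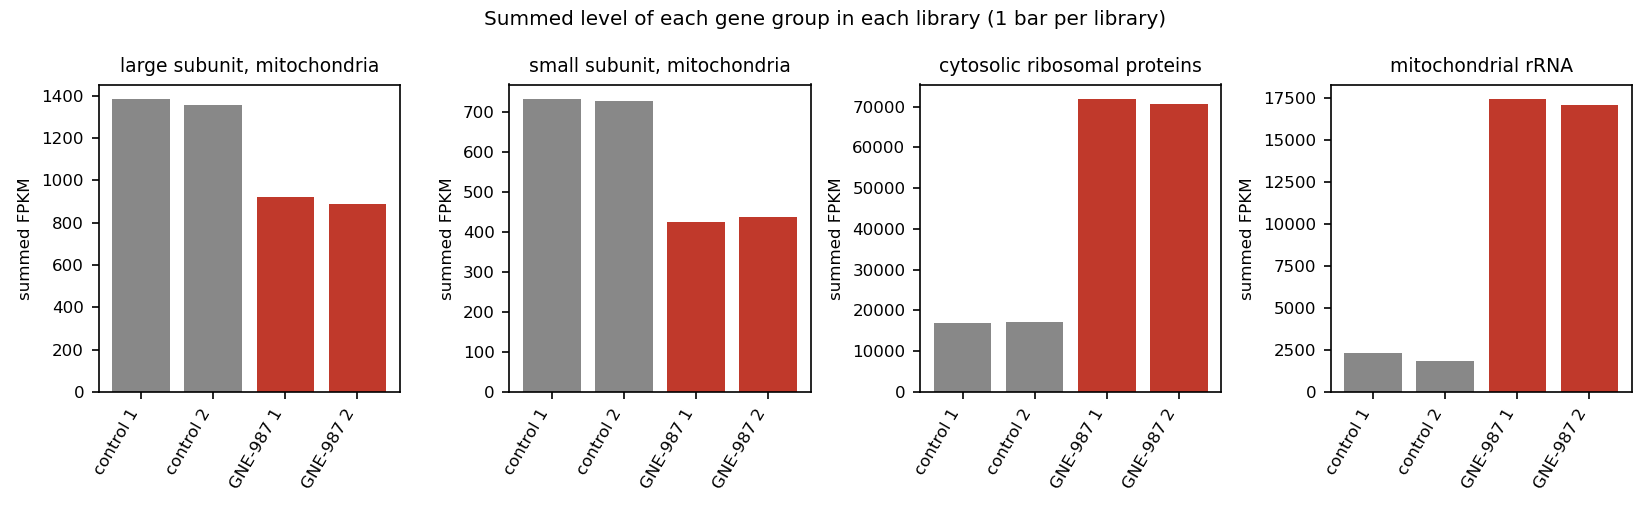
Summed FPKM on the y axis in each of the 4 libraries (1 bar per library, control in grey, GNE-987 in red) for large and small subunit genes, cytosolic ribosomal protein genes and the mitochondrial rRNAs. The bars of both mitochondrial subunits are lower after GNE-987 (920 and 889 against 1385 and 1355 FPKM for the large subunit), and those of the other groups are higher in these values as deposited.

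The cytosolic ribosome, which translates nuclear transcripts, went the other way in the deposited values. Of 79 cytosolic ribosomal protein genes, 77 were called higher and 0 lower, with a median log2 fold change of 2.01. This rise depended on the scaling, with a median of 1.23 and 57 genes called higher with total reads, 0.32 and 12 with quantile normalization, and 0.15 and 0 with GAPDH, where 2 were called lower. As deposited the values ran from -0.17 for RPL36A, which was not called, to 2.52 for RPS19, which was at 0.66 with GAPDH and 0.65 with quantile normalization and was called with neither. The summed FPKM of the mitochondrial ribosomal protein genes was 12.7% and 12.3% of that of the cytosolic ones in the controls and 1.91% and 1.92% after GNE-987. This ratio, which a single scaling factor per library leaves as it is, was 6.51 times lower after treatment. Quantile normalization, which is not such a factor, brought the medians of both families closer together (-1.14 and 0.32).

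The RNAs of the mitochondrial ribosome are transcribed in the mitochondrion. MT-RNR2, the RNA of the large subunit, was at 1743 and 1522 FPKM in the controls and at 15898 and 15585 FPKM after GNE-987. MT-RNR1, the RNA of the small subunit, was at 561 and 336 FPKM in the controls and at 1514 and 1487 FPKM after GNE-987. Both were called higher as deposited (log2 fold changes 3.27 and 1.79), but MT-RNR1 was at -0.0646 with GAPDH and at -0.0664 with quantile normalization, and its call was lost when either GNE-987 library was left out. MT-RNR2 was at 0.56 and not called with quantile normalization. How transcripts were selected from the total RNA, which bears on the level of ribosomal RNA in a library, is not given in the sources used here.

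Genes that build or serve the mitochondrial ribosome were described from lists of the same kind. Of 28 genes for ribosome assembly, 14 were called lower and 1 higher, with a median log2 fold change of -0.97. The lowest was RPUSD4, a pseudouridine synthase of mitochondrial rRNA, at 14.3 and 14.1 FPKM in the controls and at 1.88 and 2.64 FPKM after GNE-987. The gene called higher was YBEY, an rRNA endonuclease, at 3.20 and 2.45 FPKM in the controls and at 36.5 and 35.5 FPKM after GNE-987 (log2 fold change 3.64). The treated libraries of YBEY lay above and those of RPUSD4 below both controls.

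Of 15 mitochondrial translation factors, 7 were called lower and 3 higher, with a median log2 fold change of -0.93. TACO1, a translational activator of cytochrome oxidase subunit I, was lowest at -1.77, and MTRF1L, a release factor, was highest at 1.60. MTRF1L was not called with total reads (0.83) and was negative with GAPDH (-0.23). Of 16 genes for mitochondrial RNA synthesis and processing, 8 were called lower and 1 higher, with a median of -0.94. MTPAP, the mitochondrial poly(A) polymerase, was lowest at -2.94, and HSD17B10, a subunit of mitochondrial RNase P, was highest at 1.37, but was not called with total reads (0.59) or quantile normalization (0.28) and was at -0.49 with GAPDH. Among 5 further subunit genes without an MRP symbol, only PTCD3 was called lower (log2 fold change -1.14), and DAP3, a GTP-binding protein of the small subunit, was at 0.45 and negative with GAPDH and total reads (-1.39 and -0.32).

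**Figure D4:**
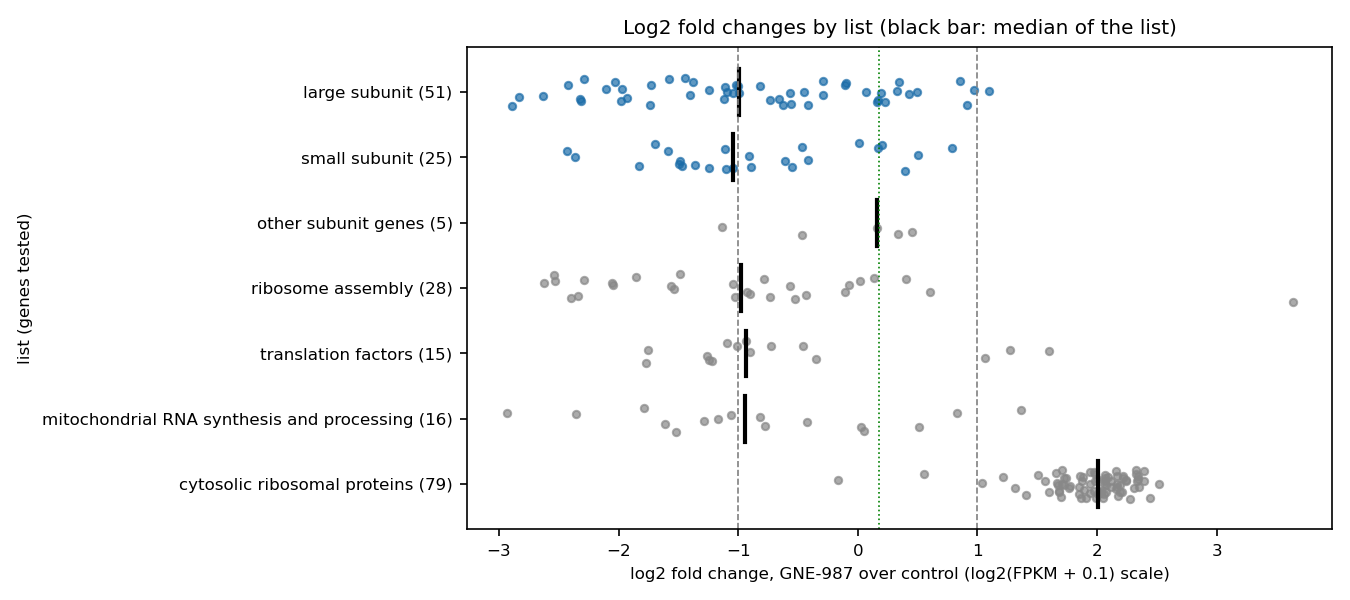
Log2 fold change on the x axis (GNE-987 over control, log2(FPKM + 0.1) scale) of each tested gene, with 1 row per list and a black bar at the median of the list. The medians of both subunits (-0.99 and -1.04), assembly, translation and RNA synthesis lists lie near -1, and that of the cytosolic ribosomal proteins at 2.01 as deposited.

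By the gene ends of GENCODE, many mitochondrial ribosomal protein genes start near the start of a gene on the opposite strand. For 27 of the 78 (34.6%), a protein-coding gene on the opposite strand started within 1000 bases, compared with 13.3% of the 19831 protein-coding genes listed. A gene's start was its outermost end in GENCODE, also for the background, and it can lie far from the RefSeq starts used below. For MRPL11, paired with PELI3, it was chr11:66466738, but the RefSeq stretch lies at chr11:66438849-66438968. For MRPS22, paired with PRR23A, it was chr3:139005806, but the first RefSeq stretch lies at chr3:139343874-139343993. Such pairs rest on the outer end alone. Starts on either side were counted, so some of these neighbours overlap the gene. There were 21 different pairs with both genes tested, that of MRPL11 and PELI3 among them. In 9 of these pairs both log2 fold changes had the same sign. In these pairs the mitochondrial ribosomal protein genes had a median log2 fold change of -0.91 and their partners one of 0.15. The number with the same sign moved with the scaling, to 19 with GAPDH, 14 with total reads and 12 with quantile normalization. The partner had the higher log2 fold change in 15 pairs as deposited and in 13 with quantile normalization. With GAPDH and with total reads the number was again 15, since a single factor per library shifts both genes of a pair nearly alike. The pairs described next were chosen after their values were seen.

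MRPL49 starts 6 bases from FAU, a gene of a cytosolic ribosomal protein. MRPL49 was at 25.7 and 29.0 FPKM in the controls and at 9.51 and 8.68 FPKM after GNE-987, whereas FAU was at 154 and 152 FPKM in the controls and at 596 and 608 FPKM after GNE-987. The log2 fold changes of the pair were -1.58 and 1.97 as deposited, and FAU was at 0.30 with quantile normalization and 0.12 with GAPDH, under the fold threshold. By its outermost GENCODE start (chr5:1801366), MRPL36 lies 41 bases from NDUFS6, a gene of respiratory complex I. Its RefSeq start lies elsewhere, next to the stretch chr5:1799838-1799957 printed below. The log2 fold changes of MRPL36 and NDUFS6 were -1.93 and 1.21 as deposited, and -3.72 and -0.64 with GAPDH. MRPL46 and MRPS11, both members, start 63 bases apart, and MRPL46 was at 0.777 and 1.10 FPKM in the controls and at 0.186 and 0.0528 FPKM after GNE-987 (log2 fold change -2.29), against the 0.79 of MRPS11. The treated values of MRPL46 rested on only 10 and 3 reads, and it was not called without control replicate 2 or with a pseudocount of 1 FPKM. Opposite signs were no rule, since MRPL50 fell together with its neighbour ZNF189 (-2.63 and -2.05).

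**Figure D5:**
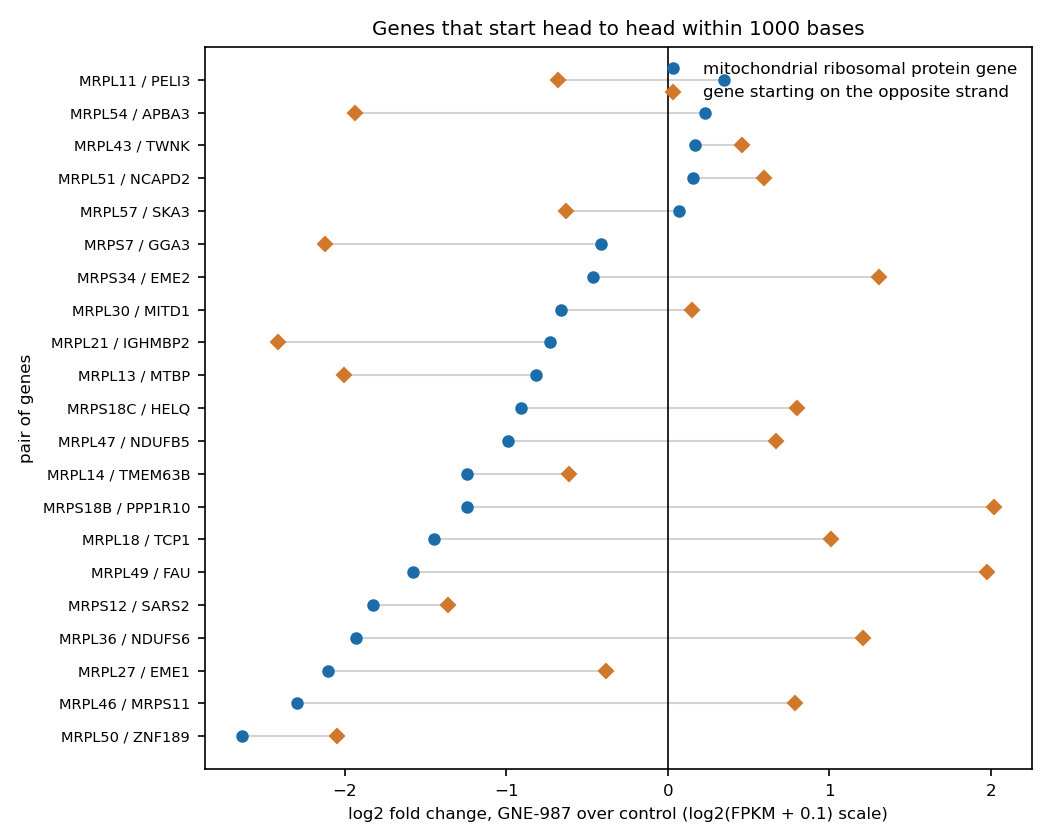
Log2 fold change on the x axis (GNE-987 over control, log2(FPKM + 0.1) scale) for 21 pairs of genes, 1 pair per row. By their outermost GENCODE starts, both genes of a pair start within 1000 bases of each other on opposite strands. Circles stand for the mitochondrial ribosomal protein gene and diamonds for its neighbour. The neighbours of MRPL49 and MRPL36 lie at 1.97 and 1.21 while the circles lie at -1.58 and -1.93, and 9 rows have both symbols on the same side of 0.

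The start regions were read from RefSeq windows of 250 bases before to 50 after the start on GRCh38.p14, which held 86 windows for 70 of the 78 genes. Short motifs were searched on both strands, namely CCGGAAG, the core bound by ETS factors, AANATGGC for YY1, CACGTG, the E-box bound by MYC and its relatives, and for NRF1 the letters GCGC, any 2 bases and GCGC. The ETS letters were in 38.4% of the members' windows, in 10.3% of all 35116 windows and in 12.8% of the 22198 windows of protein-coding genes. The YY1 letters were in 32.6%, 6.58% and 7.37% of these windows. NRF1 letters were in 12.8%, 8.32% and 10.6%, and the E-box in 11.6%, 7.26% and 8.34%. In the 100 bases before to 50 after the start, the shares for ETS were 33.7%, 7.46% and 9.40%, and for YY1 30.2%, 4.20% and 5.18%. There the members' share was below both backgrounds for NRF1 (5.81%, 5.86% and 7.43%) and the E-box (3.49%, 4.37% and 5.04%). Median log2 fold changes were -0.95 for the 30 tested genes with the ETS letters and -1.10 for the 39 without, and -1.11 for the 25 with the YY1 letters and -0.78 for the 44 without. For NRF1 the medians were -0.61 for 10 genes and -1.04 for 59, and for the E-box -0.96 for 10 and -1.04 for 59. A match of letters is a description and not a site that was shown to be bound.

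The 120 bases before the RefSeq start are shown for 4 genes because they differ in these letters and in their change. MRPS34, the most abundant member, lies at chr16:1773135-1773254 (minus strand). MRPL36, called lower with a neighbour called higher as deposited, lies at chr5:1799838-1799957 (minus strand). The RefSeq start of MRPL36 is not the GENCODE start that was paired with NDUFS6. MRPL48, called higher as deposited, lies at chr11:73787754-73787873 (plus strand), and MRPL50, called lower and without any of these letters in the stretch, lies at chr9:101398619-101398738 (minus strand). Capitals mark the letters of a motif.
MRPS34: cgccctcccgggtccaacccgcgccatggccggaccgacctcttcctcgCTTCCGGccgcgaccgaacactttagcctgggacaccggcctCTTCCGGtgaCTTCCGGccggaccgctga
MRPL36: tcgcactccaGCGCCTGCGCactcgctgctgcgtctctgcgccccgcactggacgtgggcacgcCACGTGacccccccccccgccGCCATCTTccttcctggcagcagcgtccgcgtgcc
MRPL48: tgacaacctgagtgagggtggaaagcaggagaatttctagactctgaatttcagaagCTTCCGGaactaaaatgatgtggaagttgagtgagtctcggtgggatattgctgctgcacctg
MRPL50: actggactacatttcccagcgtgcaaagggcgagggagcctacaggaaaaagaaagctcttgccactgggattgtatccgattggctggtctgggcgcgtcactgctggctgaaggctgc
The stretch of MRPS34 holds the ETS letters in 3 places, that of MRPL36 holds the NRF1, E-box and YY1 letters, and that of MRPL48 holds the ETS letters once.

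Other properties of the genes were compared with the change. Across the 77 tested genes, the Spearman correlation of the log2 fold change with exon length was 0.0852, beside -0.183 over protein-coding genes, and that with the control level was -0.174, beside -0.290. These are correlations across genes of the same libraries, and genes are not independent replicates. Some members share exon bases with other annotated genes, and whether the counting used strand is not given in the sources used here. Over 50% was shared by 3 members, while the median was 0.742%. MRPL53 shared 72.8% of its exon bases with CCDC142, MRPL12 shared 69.5% with an unnamed gene on its strand, and MRPS18A shared 50.9% with RSPH9. The values of these 3 genes may thus hold reads of their neighbours or lack reads of their own, and MRPL53 rested on at most 34 reads in a library. The same applies to members with smaller shares, among them MRPL38 (45.1%), MRPS22 (42.8%), MRPS18C (40.2%), MRPS28 (35.8%) and MRPS34 (31.2%). On their own strand the shares were 41.1% for MRPL38 and 35.8% for MRPS28. MRPS24, the member under the filter, shared 23.2% of its exon bases with URGCP-MRPS24 on its strand.

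Processed copies of these genes can also share reads with them. Of 79 annotated pseudogenes of the family, 7 passed the filter, 4 of them at 0 in both controls, so that these passed only through the treated libraries and no count of calls is given. MRPL22P1 was listed at 0 in both controls and at 7.38 and 5.89 FPKM after GNE-987, and MRPL36P1 at 0 in both controls and at 3.83 and 5.45 FPKM. How reads that fit several genes were assigned is not given in the sources used here, so the values of the parent genes MRPL22, MRPL32, MRPL36, MRPL57, MRPS15, MRPS17 and MRPS31 are less certain in this respect.

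Leaving out each library in turn, 30 of the 38 genes called lower and both genes called higher kept their call each time. The 8 that lost it in at least 1 of these fits were MRPL1, MRPL2, MRPL22, MRPL32, MRPL46, MRPL53, MRPS17 and MRPS27. With limma-voom on the recovered reads, all 38 kept the call. That fit kept the deposited scaling, and its reads came from the FPKM, so its log2 fold changes were nearly fixed in advance. With a test against a fold change of 2, 27 of the 38 kept the call and neither of the genes called higher did.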

How the data were processed

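Libraries for RNA-seq were made from total RNA with a TruSeq kit. The authors filtered and mapped the reads (HISAT2 2.0.5 and build hg38 in the submitters' processing notes), used DESeq2 for differential expression and deposited 1 FPKM value for each gene in each library. The counting program and its annotation are not given in the sources used here. Groups came from the labels, while the dose and time are those of a figure legend in the paper.

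FPKM values are no counts, so a count test was not the main test. The test for genes averaging at least 0.5 FPKM was that of limma 3.58.1 (R 4.3.3) on log2(FPKM + 0.1) (empirical Bayes with an intensity trend, no replicate block), with Benjamini-Hochberg adjustment over all 16668 genes tested. GENCODE release 44 holds 58207 of the identifiers. Reads were worked out from the FPKM steps, where a read counted as whole within 0.01. With annotated exon lengths this held for 53% of the 32895 genes above 0, and for 17 of the 78 genes described. The other 61 were given the nearest whole length that fitted, so their reads could be off by a whole factor.

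The genes, lists and tests were chosen with earlier results of these data known. Genes named in the text were those with the 6 lowest and 6 highest log2 fold changes, the 3 highest control levels, every gene under the filter, genes with a position or role of their own, the MRPS18 paralogues, MRPS30, MRPS36, and the lowest and highest gene of each further list. Neighbours and other genes were named with their values known. Alternatives covered pseudocounts, filters, scalings, the replicate block, single libraries left out, adjusted P values, a fold change of 2 as the null and limma-voom on the recovered reads.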

Additional observations from a re-analysis of the deposited data

How the results depend on the processing

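The number of genes called lower in the family (38) was 72 with GAPDH scaling, and the number called higher (2) was 0 with GAPDH scaling, total reads and the test against a fold change of 2, and 1 with quantile normalization. Over all genes the calls were 3004 higher and 9694 lower with GAPDH, 6632 lower with total reads, 2647 lower in the test against a fold change of 2, and 8757 higher without a filter. The family's median log2 fold change (-0.99) was -2.71 with GAPDH, -1.66 with total reads, -1.14 with quantile normalization, -0.79 with a pseudocount of 1 and -0.91 with a mean of at least 1 FPKM. Less the median of all genes (-1.16) it was -0.90 with quantile normalization, -0.92 with a pseudocount of 1, -0.94 with a mean of at least 1 FPKM and -1.30 without a filter. Leaving out 1 library at a time gave -0.94 to -0.90 for the median and -1.10 to -1.06 less that of all genes.

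Calls in the order conserved, mitochondria-specific, large and small subunit, assembly, translation and RNA synthesis were 43, 29, 47, 25, 27, 12 and 15 lower with GAPDH. With total reads 35 conserved genes and 12 translation factors were called lower, with the test against a fold change of 2 they were 14 and 1, and with a pseudocount of 1 the translation factors were 4. Cytosolic ribosomal proteins had 2 genes lower with GAPDH.

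In the same order, list medians less that of all genes were -1.02, -0.92, -0.84, -1.07, -1.003 and -0.97 (translation) with a mean of at least 1 FPKM. Without a filter they were -1.30, -1.37, -1.34, -1.33, -1.33, -1.29 and -1.29. With a pseudocount of 1 they were -0.92, -0.92, -0.88, -0.98, -0.98, -0.94 and -1.01. With quantile normalization they were -0.88 (conserved), -0.81 (large), -1.06 (small), -0.87, -0.89 and -0.78. With GAPDH the large subunit was at -1.09, translation at -1.20 and RNA synthesis at -1.23, with total reads the large subunit was at -1.05 and mitochondria-specific genes at -1.10, and the latter were at -1.29 with a pseudocount of 0.01 and -1.27 with limma-voom. Cytosolic ribosomal proteins (1.83) were at 1.98 with a mean of at least 1 FPKM, 1.65 without a filter, 0.56 with quantile normalization and 1.68 with GAPDH. Leaving out 1 library at a time gave -1.10 to -1.06 for conserved, -1.37 to -1.07 for mitochondria-specific, -1.10 to -0.97 for large subunit, -1.26 to -1.12 for small subunit and -1.20 to -1.07 for assembly genes.

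Log2 fold changes that changed sign were, with GAPDH, those of DAP3 (-1.39), HSD17B10 (-0.49), MRPL10 (-0.93), MRPL23 (-0.85), MRPL41 (-0.99), MRPL48 (-0.73), MRPS11 (-1.001), MRPS36 (-0.75), MT-RNR1 (-0.0646) and MTRF1L (-0.23). With total reads it was that of DAP3 (-0.32), and with quantile normalization those of GAPDH (-0.11) and MT-RNR1 (-0.0664). Placing genes by the letter of their symbol gave a ratio of large to small subunit of 1.70 in the controls and 1.92 after GNE-987, instead of 1.87 and 2.10. The members' share of windows was 5.81% for NRF1 and 3.49% for the E-box in the 100 bases before to 50 after the start, below the 5.86% and 4.37% of all windows.

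Libraries that share a replicate number had deviations from their group means that were uncorrelated across genes (0.00537). This shows no shared effect of the number but cannot exclude that the libraries were paired. With the replicate block, 37 members were lower and 2 higher, MRPL53 was lost, and over all genes 5667 were higher and 4186 lower. Median-ratio scaling left the values as deposited (log2 factor 6.42e-10), so they were already on that scale and this setting is no separate check. That scale takes the median gene, among genes above 0 in all libraries, as unchanged. In the treated libraries 6 members rested on under 50 reads, which limits their precision, and the largest standard error was 0.455. Where a library was left out, the lone sample of its group was assumed to vary like the other group. The causes of these changes were not tested.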
